A study of Arabidopsis thaliana with 6 samples.

Results

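Transcripts of 9 genes of salicylate signalling were examined in whole Arabidopsis thaliana seedlings treated with 3-hydroxydecanoic acid (3-OH-C10:0). The genes were taken by locus code: the salicylate receptors NPR1 (AT1G64280), NPR3 (AT5G45110) and NPR4 (AT4G19660), the NPR1-binding proteins NIMIN1 (AT1G02450), NIMIN2 (AT3G25882) and NIMIN3 (AT1G09415), the bZIP transcription factors TGA1 (AT5G65210) and TGA3 (AT1G22070), and the glutaredoxin GRX480 (AT1G28480). All 9 were among the 28259 loci of the files. The 2 groups were Col-0 seedlings, 10 days old and grown with 10 h of light and 14 h of dark, that stood in 3-OH-C10:0 (3 libraries) or in dimethyl sulfoxide, DMSO (3 libraries), for 8 h after a night in water under light. Bacteria make 3-OH-C10:0, a 3-hydroxy fatty acid of medium chain length, and Arabidopsis perceives it with the receptor kinase LORE. The labels disagree on the concentration: the characteristics say 5 microM, whereas the protocol of the treatment says 5 mM. No label says whether replicates were separately grown seedlings, so the p-values reflect the spread among these 6 libraries, which may be technical.

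Salicylic acid is a hormone of plant immunity that is sensed by the NPR proteins, which carry a BTB/POZ domain and ankyrin repeats. NPR1 acts as a co-activator of salicylate-responsive genes, whereas NPR3 and NPR4 act as co-repressors whose activity salicylate relieves. The NPR proteins act through TGA factors, which recognise the core TGACG. NIMIN proteins bind NPR1 and dampen its output, and GRX480 binds TGA factors and restrains jasmonate-responsive genes when it is overproduced.

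The 250 bases upstream of the annotated gene start are shown for the 5 members with the highest folds, to set their TGA core motifs beside their values. They were read from the RefSeq TAIR10.1 assembly, 5′ to 3′ on the strand of the gene, and capitals mark TGACG, its reverse complement CGTCA, and the W-box forms TTGACC and TTGACT with their reverse complements. The W-box forms share the letters TGAC with the TGA core, and no match to one is a match to the other.
NIMIN1, chr1:498540-498789, minus strand: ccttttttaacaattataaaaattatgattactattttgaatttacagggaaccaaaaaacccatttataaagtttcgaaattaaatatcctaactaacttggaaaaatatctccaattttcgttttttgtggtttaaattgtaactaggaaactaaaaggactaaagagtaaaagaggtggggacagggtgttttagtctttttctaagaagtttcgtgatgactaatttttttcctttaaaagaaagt
NIMIN2, chr3:9471040-9471289, minus strand: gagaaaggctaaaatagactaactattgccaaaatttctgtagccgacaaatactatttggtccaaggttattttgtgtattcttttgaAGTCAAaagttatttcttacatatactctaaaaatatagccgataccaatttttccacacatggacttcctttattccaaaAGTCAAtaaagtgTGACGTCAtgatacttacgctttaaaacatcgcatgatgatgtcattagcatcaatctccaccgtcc
GRX480, chr1:10014257-10014506, minus strand: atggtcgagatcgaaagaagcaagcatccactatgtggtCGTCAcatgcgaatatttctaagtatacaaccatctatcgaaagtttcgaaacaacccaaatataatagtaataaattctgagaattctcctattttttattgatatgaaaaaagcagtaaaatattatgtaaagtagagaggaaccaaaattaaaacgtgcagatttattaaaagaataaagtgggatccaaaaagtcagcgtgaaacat
NPR3, chr5:18228518-18228767, plus strand: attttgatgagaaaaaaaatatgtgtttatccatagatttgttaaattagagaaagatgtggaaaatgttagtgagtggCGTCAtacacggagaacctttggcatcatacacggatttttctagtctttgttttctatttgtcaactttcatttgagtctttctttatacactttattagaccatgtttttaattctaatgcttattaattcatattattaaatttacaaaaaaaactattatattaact
NPR4, chr4:10698812-10699061, minus strand: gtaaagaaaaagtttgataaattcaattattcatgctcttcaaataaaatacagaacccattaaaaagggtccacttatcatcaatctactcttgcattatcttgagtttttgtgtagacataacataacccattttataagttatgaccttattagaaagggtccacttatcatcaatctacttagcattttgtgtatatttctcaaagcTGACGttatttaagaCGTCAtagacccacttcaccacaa
TGACG was found on either strand in 4 of the 9 upstream windows, against 18.6% of the 27443 windows of protein-coding genes. NIMIN2 held the 8-letter palindrome TGACGTCA, in which the forward and the reverse TGACG overlap, and NPR4 held a forward and a reverse copy close to the gene start. At least 2 copies were present in 3.21% of all windows. NPR3 and GRX480 held 1 copy each, and NIMIN1, which had counts in treated libraries alone, held none. The windows of NPR1, TGA1 and TGA3, whose transcripts also rose, and of NIMIN3 held no copy either. A W-box form was found in NIMIN2 alone of the 9, with 2 copies of TTGACT on the reverse strand, against 28.4% of all windows with at least 1 copy of TTGACC or TTGACT. The window of NIMIN3 overlaps exons of neighbouring genes. These are matches of letters in a short window and are not sites shown to be bound.

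After the treatment 8 of the 9 transcripts rose, none fell and NIMIN3 did not pass the test. At an unadjusted p under 0.05 in edgeR, and by DESeq2, 0 of the 9 fell as well. Among all 19768 tested genes 35.6% were called higher by the same rule, edgeR's quasi-likelihood test with a Benjamini-Hochberg adjusted p under 0.05, and 71.4% were called in either direction. For the same 8 members all 3 treated libraries lay above all 3 DMSO libraries, which held for 37.7% of tested genes, while 38.2% had all treated below all DMSO libraries and 75.9% had no overlap in either direction. The median log2 fold change of the members was 2.03, against -0.04 over all tested genes, and was the same with NIMIN1 at its lower bound and GRX480 at its count ratio. All 9 members passed the filter on low counts. NIMIN1, NIMIN2 and GRX480, however, reached its cutoff in fewer than 3 DMSO libraries and passed through the treated libraries. The filter thus favours a rise for these 3, which in part fixes the count and the median of the members. Of the other 6, 5 rose. Unless stated otherwise, levels are CPM (counts scaled to library size, with TMM factors), folds are 3-OH-C10:0 over DMSO, log2 fold changes carry their standard error, and adjusted p-values come from that edgeR test.

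**Figure D1:**
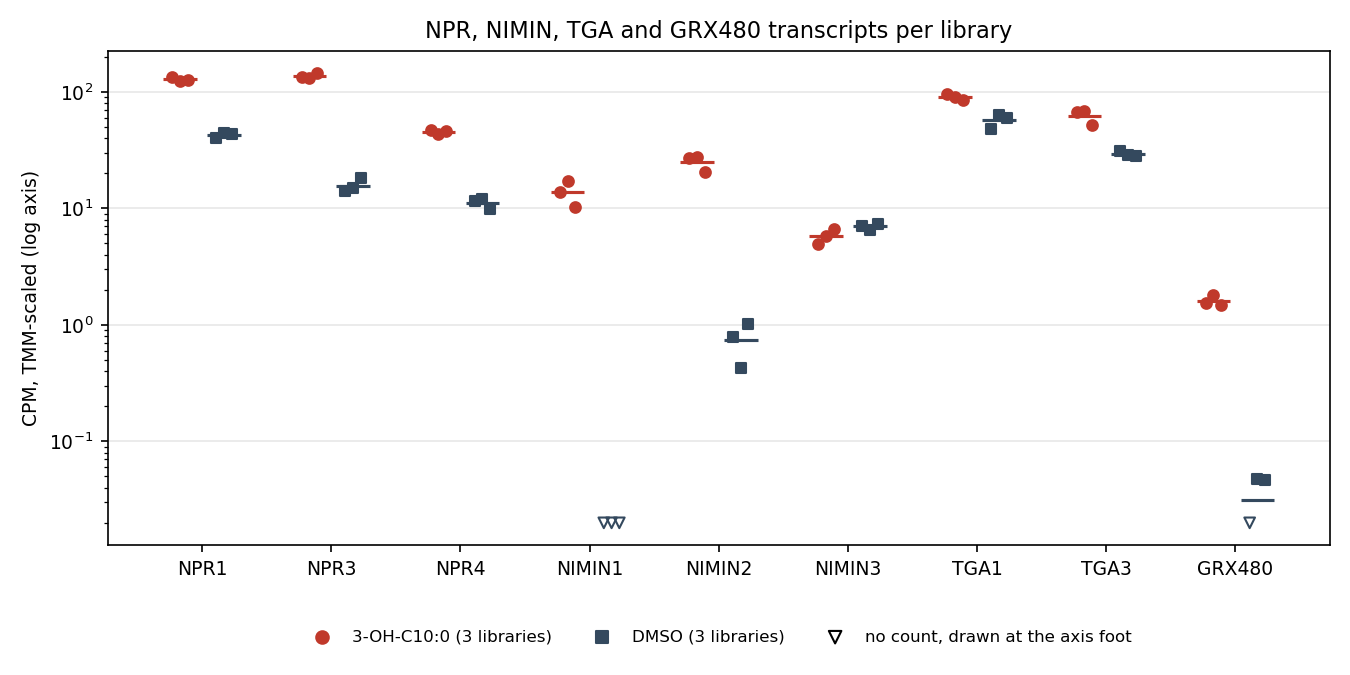
CPM of the 9 members in each library on a log axis, with 3-OH-C10:0 libraries as circles, DMSO libraries as squares and group means as bars. NIMIN1 had no count in any DMSO library and GRX480 none in 1 of them (open triangles), the groups of NIMIN3 overlap, and in the other 8 genes every treated library lies above every DMSO library.

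All 3 receptor genes rose. NPR1, the co-activator, is at 23852748 to 23855658 of chromosome 1, minus strand in TAIR10.1, with 4 exon blocks. It stood at 134, 124 and 127 CPM in the treated libraries and at 39.9, 43.9 and 43.5 CPM in the DMSO libraries. The groups were far apart and the libraries of each group close together, and the fold was 3.02 (log2 fold change 1.59 ± 0.080, adjusted p = 3.18e-08). A pseudogene and a non-coding RNA gene overlap NPR1 on the opposite strand in the annotation. No source used here gives the strand of the reads, so reads of these loci, which were not analysed here, could not be told apart from those of NPR1.

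NPR3, a co-repressor, is at 18228768 to 18231588 of chromosome 5, plus strand, with 3 exon blocks. It had 134, 131 and 144 CPM in treated seedlings and 14.1, 14.9 and 18.1 CPM in DMSO seedlings, which is an 8.70-fold difference (log2 fold change 3.12 ± 0.11, adjusted p = 2.16e-09). Every treated library lay well above every DMSO library. NPR4, its closest relative, is at 10696266 to 10698811 of chromosome 4, minus strand, also with 3 exon blocks. It had 47.4, 43.2 and 46.1 CPM in treated seedlings and 11.6, 12.0 and 9.77 CPM in DMSO seedlings (4.10-fold, log2 fold change 2.03 ± 0.098, adjusted p = 2.28e-08). For NPR4, too, all treated libraries were above all DMSO libraries. The NPR3 and NPR4 transcripts share 74.8% identity over 1824 aligned bases.

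Per transcript length, the order of the receptors changed. NPR3 was at 56.2 ± 2.36 FPKM (fragments per kilobase of transcript, scaled to library size, SD, n = 3) in treated seedlings and at 6.85 ± 0.958 FPKM in DMSO seedlings, and NPR1 at 49.3 ± 1.53 FPKM in treated and 17.3 ± 0.730 FPKM in DMSO seedlings. The ratio of NPR3 to NPR1 within a library, which does not depend on library scaling, was 1.07, 1.13 and 1.22 in treated libraries and 0.378, 0.362 and 0.444 in DMSO libraries. NPR3 thus exceeded NPR1 in every treated library and was below it in every DMSO library, a 2.90-fold change of the ratio. NPR4 was at 0.518, 0.510 and 0.532 of the NPR1 level in treated libraries and at 0.426, 0.399 and 0.329 in DMSO libraries. The ratio of NPR3 to NPR4 was 2.07, 2.22 and 2.29 in treated libraries and 0.886, 0.907 and 1.35 in DMSO libraries. None of these ratios overlapped between the groups. Of the summed FPKM of the 3 receptors, NPR1 held 37.6% ± 1.13 in treated and 56.2% ± 0.698 in DMSO seedlings, and NPR3 held 42.9% ± 1.44 in treated and 22.2% ± 2.50 in DMSO seedlings.

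Of the genes for the NPR1-binding NIMIN proteins, NIMIN1 and NIMIN2 rose and NIMIN3 did not pass. Each is a single-exon gene, and none had an alignment to another annotated transcript. NIMIN1, which binds the C-terminal part of NPR1, is at 497917 to 498539 of chromosome 1, minus strand. It had 272, 306 and 269 counts in the treated libraries, which is 13.9, 17.2 and 10.3 CPM, and no count in any DMSO library. Against a floor of 3 counts over the DMSO group it was at least 279.5-fold higher (adjusted p = 1.75e-06).

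NIMIN2, which also binds the C-terminal part of NPR1, is at 9470357 to 9471039 of chromosome 3, minus strand. It had 27.2, 27.6 and 20.4 CPM in treated seedlings and 0.792, 0.425 and 1.02 CPM in DMSO seedlings. That was a 33.2-fold difference (log2 fold change 5.06 ± 0.23, adjusted p = 3.42e-08), and the DMSO values rest on 16, 9 and 22 counts. The lowest treated library was far above the highest DMSO library. Its upstream window is the one shown above with TGACGTCA.

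NIMIN3, which binds the N-terminal part of NPR1, is at 3037754 to 3038408 of chromosome 1, minus strand. It had 4.94, 5.83 and 6.62 CPM in treated seedlings and 7.08, 6.56 and 7.32 CPM in DMSO seedlings. The highest treated library lay above the lowest DMSO library, and the difference did not pass (log2 fold change -0.26 ± 0.14, normal 95% interval -0.55 to 0.02, adjusted p = 0.124). On the authors' FPKM values the groups did not overlap, with 7.27, 8.79 and 9.73 FPKM in treated and 11.3, 10.11 and 11.6 FPKM in DMSO seedlings, and limma on log2(FPKM + 1) gave -0.33 with an adjusted p of 0.0246.

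NIMIN3 made up 8.97%, 9.65% and 15.0% of the summed NIMIN1, NIMIN2 and NIMIN3 FPKM in treated libraries and 87.9%, 92.7% and 85.4% in DMSO libraries. The sum itself was 79.0 ± 13.3 FPKM in treated and 12.4 ± 1.37 FPKM in DMSO seedlings. Set against NPR1 in the same library, NIMIN2 stood at 0.962, 1.05 and 0.759 of the NPR1 level in treated libraries and at 0.0939, 0.0455 and 0.111 in DMSO libraries. NIMIN3 stood at 0.142, 0.181 and 0.201 of NPR1 in treated libraries and at 0.682, 0.575 and 0.648 in DMSO libraries. The NIMIN2 ratio was thus 11.8-fold higher and the NIMIN3 ratio 0.273 times as high after treatment. The lower NIMIN3 ratio mostly reflects its denominator. In the edgeR fit NPR1 rose 3.02-fold, whereas NIMIN3 was at 0.833-fold and did not pass.

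**Figure D2:**
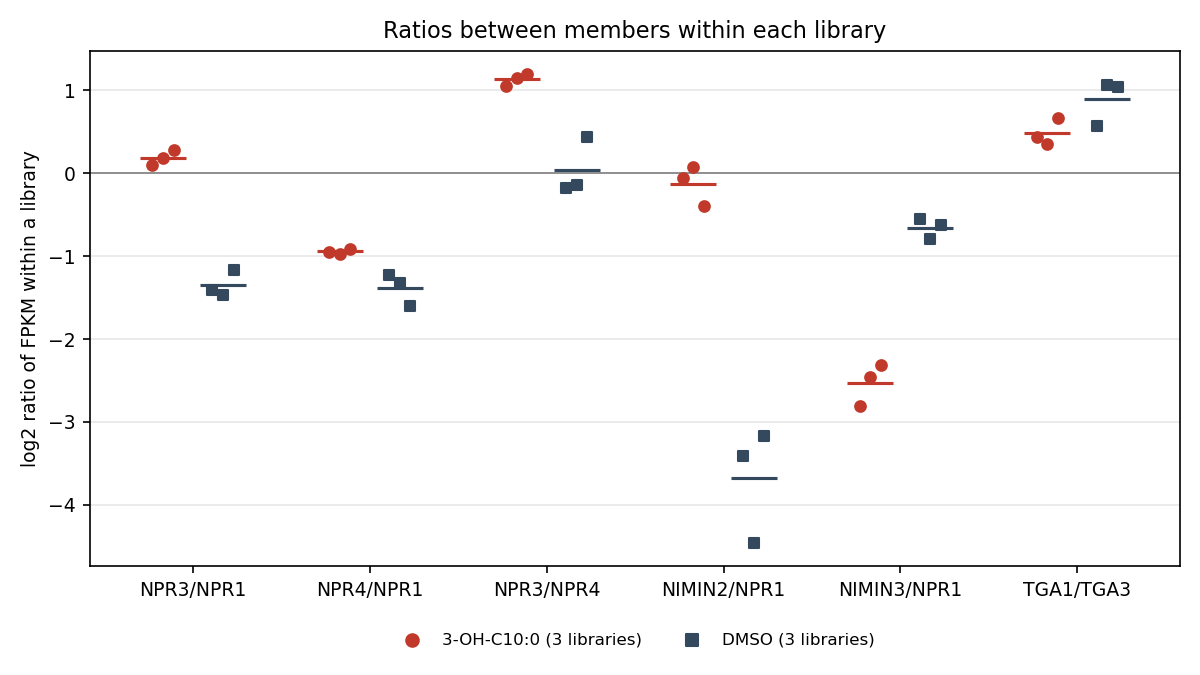
Log2 ratio of FPKM between pairs of members within each library, with 3-OH-C10:0 libraries as circles, DMSO libraries as squares and group means as bars. The NPR3/NPR1 ratio lies above 0 in the treated and below 0 in the DMSO libraries, NIMIN2/NPR1 and NIMIN3/NPR1 move in opposite directions, and TGA1/TGA3 overlaps between the groups.

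Of the 7 ratios planned, 6 could be computed, because GRX480 had no count in a DMSO library. For 5 of them an exact permutation test over the 6 libraries gave a two-sided p of 0.1 (0.12 adjusted over the 6 ratios), the smallest that 3 against 3 libraries allow, so no ratio could pass 0.05. The log2 differences, treated minus DMSO, were 1.54 for NPR3/NPR1, 0.44 for NPR4/NPR1, 1.09 for NPR3/NPR4, 3.56 for NIMIN2/NPR1 and -1.87 for NIMIN3/NPR1.

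Both TGA genes rose. TGA1, whose cysteines are redox-regulated and control its binding to NPR1, is at 26057533 to 26061157 of chromosome 5, plus strand, with 9 exon blocks. It had 95.6, 90.6 and 85.6 CPM in treated seedlings and 48.0, 62.6 and 59.6 CPM in DMSO seedlings (1.60-fold, log2 fold change 0.67 ± 0.10, adjusted p = 1.64e-04). TGA3, which binds NPR1 and activates PR1, is at 7789133 to 7792139 of chromosome 1, plus strand, with 9 exon blocks. It had 67.3, 68.2 and 51.9 CPM in treated seedlings and 31.0, 28.7 and 27.8 CPM in DMSO seedlings (2.14-fold, log2 fold change 1.095 ± 0.11, adjusted p = 6.99e-06). The groups did not overlap for either gene. TGA1 stood at 1.36, 1.27 and 1.59 times the TGA3 FPKM in treated libraries and at 1.49, 2.09 and 2.06 times in DMSO libraries. These ratios overlapped (log2 difference -0.41, exact permutation test, two-sided p = 0.2, 0.2 adjusted over the 6 ratios), so an unequal change of TGA1 and TGA3 was not shown.

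GRX480, a CC-type glutaredoxin also called ROXY19, is at 10013434 to 10014256 of chromosome 1, minus strand in 1 exon. It had 30, 32 and 39 counts in the treated libraries (1.53, 1.80 and 1.49 CPM) and 0, 1 and 1 counts in the DMSO libraries. The ratio was 50 with a 95% counting interval of 13.5 to 419 that covers counting error only, and the adjusted p was 4.40e-06. It was the least abundant member in treated seedlings, at 2.60 ± 0.304 FPKM.

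Ordered by FPKM, treated seedlings held NPR3 first, followed by NPR1 (49.3), TGA1 (48.2 ± 2.51) and NIMIN2 (45.6 ± 7.77), whose library ranges overlapped from each to the next. TGA3 (34.7 ± 5.36) overlapped with NIMIN2 as well, NPR4 (25.7 ± 0.873) and NIMIN1 (24.8 ± 6.49) overlapped with each other, and NIMIN3 (8.60 ± 1.24) and GRX480 came last. In DMSO seedlings TGA1 was first at 32.0 ± 3.92 FPKM, then NPR1 and TGA3 (17.2 ± 1.12), which overlapped. NIMIN3 followed at 10.99 ± 0.777 FPKM, then NPR3 and NPR4 (6.64 ± 0.658), which overlapped, and NIMIN2 at 1.44 ± 0.597 FPKM. GRX480 was listed at 0, 0.08 and 0.08 FPKM and NIMIN1 at 0 in every DMSO library. NIMIN2 thus stood seventh of the 9 in DMSO seedlings and had reached the range of NPR1 and TGA1 in treated ones.

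The nearest relatives of the members, taken as a list of 12 NPR, BOP, NIMIN and TGA genes, held 7 that rose, 2 that fell and 3 that did not pass, against 35.6% of all tested genes higher and 35.8% lower, with a median log2 fold change of 0.59. AT4G26120, annotated as an ankyrin repeat and BTB/POZ domain protein, is the transcript most similar to NPR1 (74.4% identity over 1702 aligned bases). It had 45.3, 42.5 and 37.7 CPM in treated seedlings and 1.14, 2.12 and 1.16 CPM in DMSO seedlings (log2 fold change 4.82 ± 0.19, adjusted p = 9.03e-09). AT4G01895, annotated as similar to NIMIN1, had 1.88, 1.963 and 1.49 CPM in treated and 0.396, 0.142 and 0.185 CPM in DMSO seedlings (2.86 ± 0.38, adjusted p = 5.67e-05), and passed the filter through the treated libraries. BOP2, a BTB/ankyrin protein of the boundary between leaf blade and petiole, fell, with 15.1 ± 0.718 CPM in treated and 24.9 ± 0.354 CPM in DMSO seedlings (-0.72 ± 0.085, adjusted p = 2.28e-05). BOP1, its relative, was at 0.871 ± 0.165 CPM in treated and 1.25 ± 0.310 CPM in DMSO seedlings and did not pass (-0.54 ± 0.31, adjusted p = 0.133).

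**Figure D3:**
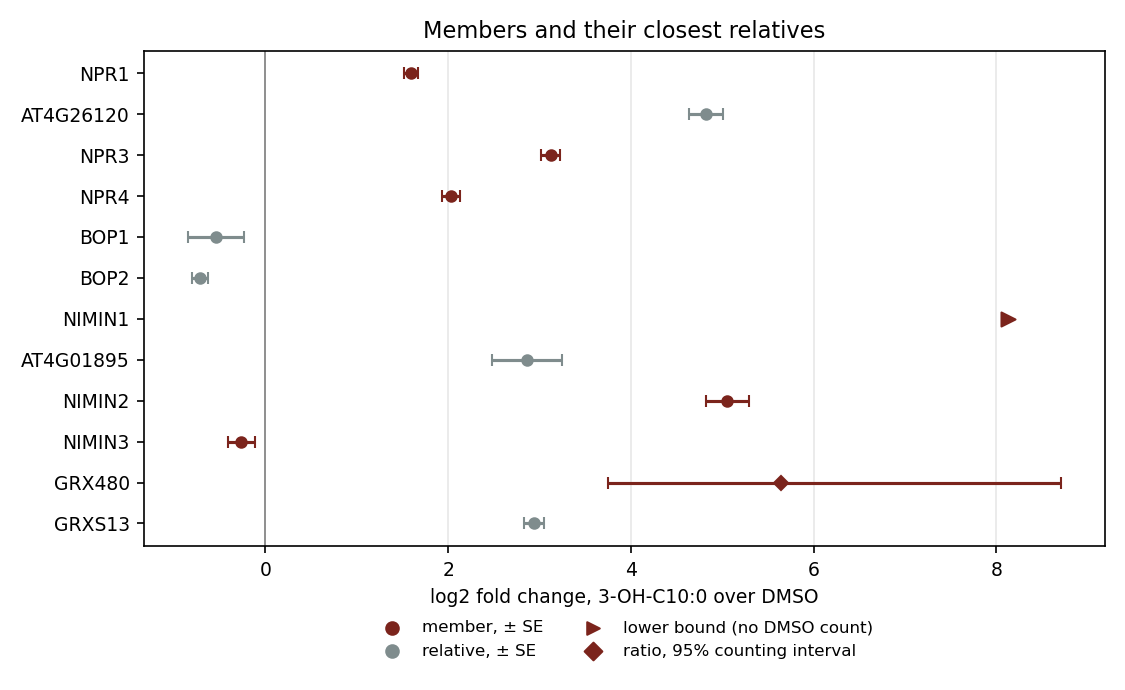
Log2 fold changes, 3-OH-C10:0 over DMSO, of the NPR, NIMIN and GRX480 members (dark) and of related genes (grey), with standard errors. The triangle for NIMIN1 is a lower bound against a floor of 3 DMSO counts, and the diamond for GRX480 is the count ratio with its 95% counting interval. Of the genes drawn, NIMIN3, BOP1 and BOP2 are left of 0, and of these BOP2 alone passed the test. GRXS13 is the only other CC-type glutaredoxin drawn. Of the 13 tested, 3 rose and 5 fell.

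Of the 8 other TGA genes, 5 rose, PAN fell, and TGA2 and TGA6 did not pass, against 35.6% higher and 35.8% lower among all tested genes. TGA4, the sister of TGA1 (81.4% identity over 1135 aligned bases), rose to 27.5 ± 2.14 CPM in treated seedlings, against 15.0 ± 0.929 CPM in DMSO (0.87 ± 0.096, adjusted p = 1.23e-05). TGA7, the sister of TGA3 (75.4% over 1163 bases), rose to 54.5 ± 8.10 CPM in treated seedlings, against 18.7 ± 1.02 CPM in DMSO (1.54 ± 0.11, adjusted p = 6.16e-07). TGA2, TGA5 and TGA6 act redundantly in systemic acquired resistance. Of these TGA5 rose (1.09 ± 0.10, adjusted p = 4.28e-06), while TGA2 was at 12.3 ± 1.09 CPM in treated and 12.0 ± 1.75 CPM in DMSO seedlings (log2 fold change 0.03, adjusted p = 0.831) with a sign that turned under total-count scaling (-0.05), and TGA6 was at 8.27 ± 0.564 and 7.26 ± 0.439 CPM in treated and DMSO seedlings (0.19, adjusted p = 0.176). TGA9, known from anther development, rose (1.13 ± 0.098, adjusted p = 1.96e-06), and PAN, a regulator of floral organ number, fell (-0.89 ± 0.20, adjusted p = 0.00215). TGA10 was at the threshold (0.32 ± 0.13, adjusted p = 0.0499) and lost its call in 11 of 13 alternative settings. TGA1 and TGA3 together held 47.1% ± 1.82 of the summed FPKM of the 10 TGA genes in treated and 48.4% ± 0.939 in DMSO seedlings, and TGA2, TGA5 and TGA6 together 15.7% ± 0.472 in treated and 19.3% ± 1.08 in DMSO seedlings.

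**Figure D4:**
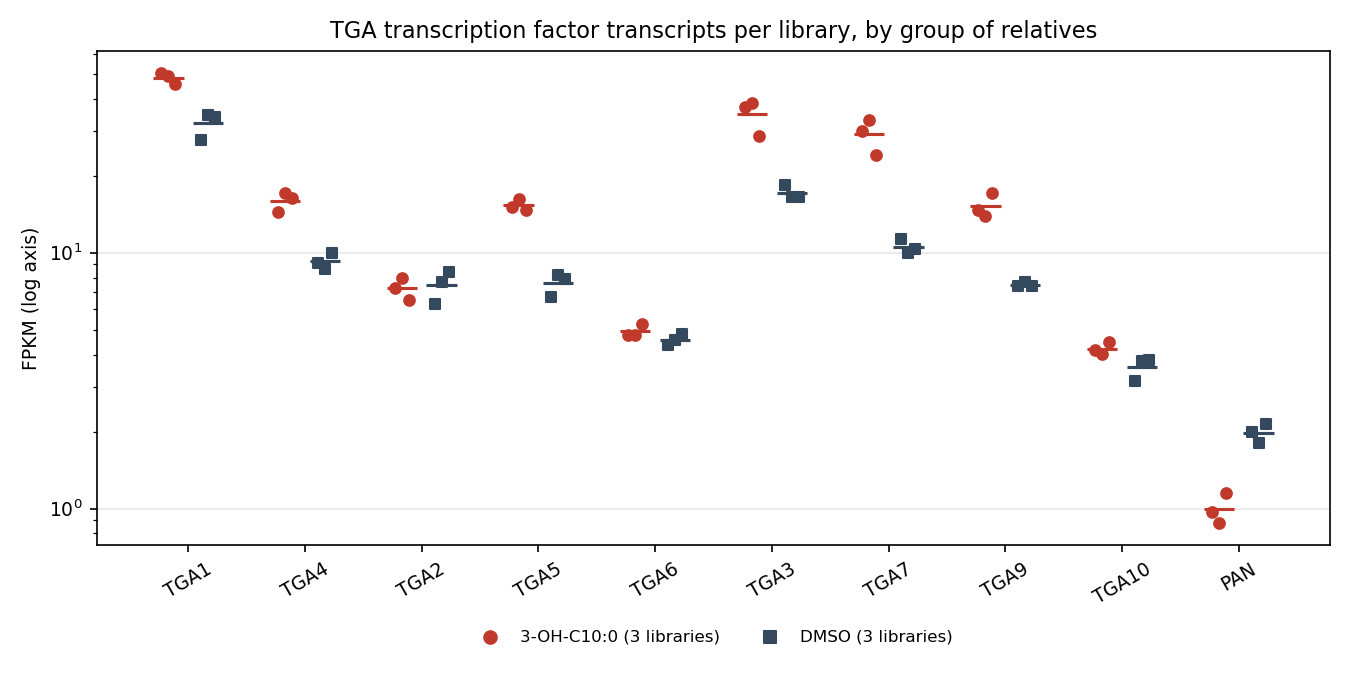
FPKM of the 10 TGA genes in each library on a log axis, with 3-OH-C10:0 libraries as circles, DMSO libraries as squares, group means as bars and close relatives side by side. TGA1, TGA4, TGA5, TGA3, TGA7, TGA9 and TGA10 lie higher in every treated library, PAN lies lower, and TGA2 and TGA6 overlap between the groups.

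Of 21 genes for proteins that modify NPR1 or work with it 16 rose, none fell and 5 did not pass (median log2 fold change 0.64), against 35.6% higher and 35.8% lower among all tested genes. At an unadjusted p under 0.05 in edgeR, and by DESeq2, 0 of them fell as well. TBF1, a heat-shock-factor-like regulator downstream of NPR1, rose to 263 ± 27.5 CPM in treated seedlings, against 13.1 ± 0.976 CPM in DMSO (4.33 ± 0.12, adjusted p = 4.19e-10). The genes of the thioredoxins that reduce NPR1 to its monomer rose: TRXH5 had 168 ± 6.48 CPM in treated and 41.2 ± 3.52 CPM in DMSO seedlings (2.02 ± 0.089, adjusted p = 1.21e-08), and TRXH3 had 792 ± 140.0 CPM in treated and 393.5 ± 34.7 CPM in DMSO seedlings (1.01 ± 0.14, adjusted p = 8.07e-05). NTRA, which supplies thioredoxins with electrons from NADPH, rose as well (0.90 ± 0.091, adjusted p = 6.43e-06). GSNOR1, which removes S-nitrosoglutathione and so limits the nitrosylation that keeps NPR1 oligomeric, was at 210.5 ± 4.95 CPM in treated and 212 ± 3.49 CPM in DMSO seedlings (log2 fold change -0.01, adjusted p = 0.932). The Mediator subunit MED15 (1.23 ± 0.090, adjusted p = 5.89e-07), the U-box ubiquitin ligase gene AT5G15400 (0.92 ± 0.074, adjusted p = 1.14e-06), the deubiquitinase gene UBP6 (0.99 ± 0.087, adjusted p = 2.25e-06) and SUMO3, whose product is attached to NPR1 (1.27 ± 0.23, adjusted p = 5.18e-04), rose.

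Of 27 salicylate-responsive genes 25 were tested. Of these 24 rose and 1 fell, against 35.6% of all tested genes higher and 35.8% lower. Their median log2 fold change was 4.24, also with 3 genes of 0 to 3 DMSO counts at their lower bound or count ratio. Of the 25, 12 reached the filter's cutoff in fewer than 3 DMSO libraries and passed through the treated libraries (PR1, WRKY38, WRKY58, WRKY59, WRKY62, WRKY66, DLO1, LURP1, ALD1, FMO1, PCC1 and AED1). The filter thus favours a rise for these 12, which in part fixes this count and median. Of the other 13, 12 rose and 1 fell. The list was drawn from known salicylate responses, and earlier results on some of its genes in these samples were known. The strongest by p were UGT76B1, a glucosyltransferase of salicylate and N-hydroxypipecolate, with 288 ± 29.8 CPM in treated and 11.3 ± 0.678 CPM in DMSO seedlings, and DMR6, a salicylate hydroxylase, with log2 fold changes of 4.67 ± 0.11 (adjusted p = 2.57e-10) and 3.56 ± 0.092 (adjusted p = 3.27e-10). The transcription factor genes WRKY70 (4.89 ± 0.16, adjusted p = 5.18e-09) and WRKY53 (3.60 ± 0.16, adjusted p = 1.39e-08) followed. WRKY70 stood at 149, 172 and 183 CPM in treated libraries and at 6.63, 4.20 and 6.11 CPM in DMSO libraries, with no overlap.

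The pathogenesis-related genes, the classical targets of NPR1 and TGA3, were at low levels in both groups. PR1 had 15, 55 and 19 counts in treated libraries and 1, 5 and 0 in DMSO libraries (log2 fold change 3.87 ± 0.99, adjusted p = 0.00823), and the log2 fold change was 2.90 without 3-OH-C10:0 replicate 2 and 5.63 without DMSO replicate 2. PR2 had 63 counts over the treated libraries and none in DMSO, which is at least 20.8-fold higher if the DMSO group is set to 3 counts in sum, and was not tested. PR5 fell, with 2.44, 2.36 and 2.68 CPM in treated and 6.43, 3.78 and 4.82 CPM in DMSO seedlings (-0.998 ± 0.22, adjusted p = 0.00170).

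Of 11 genes of salicylate synthesis and its control 9 rose, none fell and 2 did not pass (median log2 fold change 2.88), against the same 35.6% higher and 35.8% lower of all tested genes. At an unadjusted p under 0.05 in edgeR 0 fell, and by DESeq2 1 fell. It was ICS2, the minor isochorismate synthase gene, with a log2 fold change of -1.59 (adjusted p = 0.0702 in edgeR), which also passed without DMSO replicate 2 or 3 and was at -0.49 without DMSO replicate 1 (adjusted p = 0.206). PBS3 (8.65 ± 0.13, adjusted p = 8.70e-11), ICS1 (5.52 ± 0.11, adjusted p = 9.12e-11), CBP60G (6.84 ± 0.17, adjusted p = 2.73e-10) and SARD1 (5.55 ± 0.16, adjusted p = 5.68e-10) had the smallest p. ICS1 and PBS3 encode enzymes of the isochorismate route to salicylate, and CBP60G and SARD1 encode their transcriptional activators.

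Of 18 other CC-type glutaredoxin genes 13 were tested, of which 3 rose, 5 fell and 5 did not pass (median log2 fold change -0.25). The shares were 23.1% higher and 38.5% lower, beside 35.6% higher and 35.8% lower among all tested genes. GRXS13, the transcript most similar to GRX480 (64.6% identity over 311 aligned bases), had the smallest p of the list, with 111, 109 and 129 CPM in treated libraries and 13.2, 15.4 and 16.8 CPM in DMSO libraries (2.94 ± 0.11, adjusted p = 4.19e-09). The others that rose were AT3G62930 (0.70 ± 0.17, adjusted p = 0.00387) and AT3G21460 (0.87 ± 0.28, adjusted p = 0.0149, and 0.0696 without 3-OH-C10:0 replicate 3). Without the filter on low counts, and without any 1 of the treated libraries, 8 in place of 5 fell, the additional genes being AT4G15660, AT4G15670 and AT2G47880, which the filter had left untested.

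For each member the tested gene with the most similar profile was found by the Euclidean distance of log2(CPM + 0.5) over the 6 libraries, after each gene was centred on its mean. It was GAD (AT5G17330), a glutamate decarboxylase gene, for NPR1 (distance 0.0583), EXO70B2, of the exocyst, for NPR3 (0.138), the NAC factor gene NAC046 for NPR4 (0.111), MSRB8, a methionine sulfoxide reductase gene, for NIMIN1 (0.198), CCR2 (AT1G80820), a cinnamoyl-CoA reductase gene, for NIMIN2 (0.136) and LACS4, a long-chain acyl-CoA synthetase gene, for GRX480 (0.124). For NIMIN3 it was AT2G29510 (0.0834), for TGA1 the bZIP gene AT2G21230 (0.0993) and for TGA3 AT3G22845 (0.0815). With 2 groups the distance mostly measures likeness of the fold, and the added 0.5 CPM compresses the profiles of NIMIN1 and GRX480.

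Some tissue markers moved too. Among all tested genes 35.6% were called higher and 35.8% lower. The 5 leaf mesophyll markers summed to between 10500 and 15570 CPM in treated libraries and between 42490 and 46700 CPM in DMSO libraries. Of these RBCS1A, RBCS3B and RCA fell, and LHCB1.1 and LHCB2.1 did not pass. The 6 root markers summed to 647 to 921 CPM in treated and 1314 to 1420 CPM in DMSO libraries, and 5 fell. PYK10 made up most of that sum, with a mean of 710 CPM in treated and 1302 CPM in DMSO libraries. The 3 vascular markers summed to 302 to 335 CPM in treated and 189.5 to 199 CPM in DMSO libraries, where SUC2 and APL rose and IRX3 fell, and the 3 guard cell markers summed to 15.7 to 18.2 CPM in treated and 23.5 to 24.0 CPM in DMSO libraries, with 1 that fell. Of the flower markers AP1 was at 0 in all libraries and PI rose, and the seed markers had at most 29 counts in a library. In whole seedlings fewer cells of a type and less RNA per cell cannot be told apart, and the part of tissue make-up in the results on the members was not tested.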

How the data were processed

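RNA of whole seedlings was sequenced in 6 libraries, 3 per group. The deposited tables give, per the file headers, an estimated count and an FPKM value per locus. Per the submitters' processing notes the genome build was TAIR10 and the tools were RSEM, StringTie 1.3.1, HISAT2 2.2.4, Bowtie2 2.2.8 and fastp 0.18.0, with no role stated. Of the count values 3.62% were not whole, and counts were rounded. Library totals were 18064723 to 27131500 counts in 3-OH-C10:0 and 19390988 to 21000782 counts in DMSO libraries, so 3 counts were worth 0.115 to 0.168 CPM. Counting intervals and floors cover counting error only.

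Loci were kept by edgeR 4.0.16 filterByExpr (minimum count 10), which left 19768 of 28259, scaled by TMM and tested with the robust quasi-likelihood F-test in R 4.3.3. Benjamini-Hochberg adjustment ran over all tested genes at 0.05. The test was tried on simulated data with known changes in a small share of genes, all well counted, at a fixed dispersion. That trial does not cover data in which most genes change, or genes with almost no DMSO counts such as NIMIN1 and GRX480. FPKM was used for levels between genes and for ratios within a library, with an exact permutation test. Alternatives used DESeq2 1.42.0, limma 3.58.1, other scaling, no filter, a replicate block and each library left out. Coordinates and upstream sequences are from RefSeq TAIR10.1.

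The members and lists were chosen with earlier results of these data known. All members were named, with up to 4 genes per list by smallest p, those that passed against the list's main direction and the gene nearest to each member. AT4G01895, BOP1, TGA2, TGA4, TGA6, TGA10, TRXH3, NTRA, GSNOR1, UBP6, SUMO3, PR1, PR2, ICS2, AT4G15660, AT4G15670, AT4G15700, AT2G30540, AT2G47880 and the genes listed for the filter alone fall outside that rule and were chosen after their values were seen. Replicates of a group differed by more than counting noise (mean chi-square per gene 4.81 to 23.3).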

Additional observations from a re-analysis of the deposited data

How the results depend on the processing

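The 8 members that rose kept their call in all 13 alternatives. NIMIN3 passed as lower with limma on log2(FPKM + 1) and on log2(FPKM + 0.1), so that 1 member fell there (log2 fold changes -0.33 and -0.36). The glutaredoxins that fell numbered 8 with no filter on low counts and 6 to 8 when 1 library was left out, as genes that the filter had removed were then tested. The synthesis genes that fell numbered 1 by DESeq2 and 0 to 1 when 1 library was left out. GSNOR1, not called, changed sign with RLE size factors (0.01465), no filter (0.000493) and DESeq2 (0.01478), and ranged from -0.034 to 0.01526 when 1 library was left out. TGA2, not called, changed sign with total-count scaling (-0.049), limma on log2(FPKM + 1) (-0.032) and log2(FPKM + 0.1) (-0.035), and ranged from -0.084 to 0.11 when 1 library was left out. TGA10 lost its call in 11 of 13 alternatives. The cause of the other changes was not tested.

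It was not settled whether same-numbered libraries share more than the number. Their deviations correlated at 0.0414, -0.0099 and 0.136, and 3 of 6 libraries correlated best with their own number. With the replicate block 8 members rose and 0 fell, TGA10 had an adjusted p of 0.0544, and the ratios had an exact p of 0.25, the smallest that 3 pairs allow. Depth limits NIMIN1 and GRX480, whose DMSO libraries held 0 to 1 counts, and PR1.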

Other observations

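A run of neighbouring CC-type glutaredoxin genes was lower in treated seedlings. AT4G15680 had 17, 16 and 33 counts in 3-OH-C10:0 libraries and 64, 111 and 67 in DMSO libraries (log2 fold change -1.90, edgeR adjusted p = 1.30e-04). AT4G15690 had 25, 21 and 42 counts in 3-OH-C10:0 libraries and 61, 135 and 102 in DMSO libraries (-1.78, adjusted p = 2.38e-04). AT4G15700 fell too (-0.80, adjusted p = 0.00427). The groups did not overlap for any of these 3 genes, which held for 75.9% of all tested genes. All treated libraries lay below all DMSO libraries in 38.2% of tested genes. AT4G15670 and AT4G15660, which were not tested, had 1 to 4 counts in 3-OH-C10:0 libraries and 7 to 18 in DMSO libraries. These genes are close paralogs, so the authors' counting could have split reads between them. Outside that run AT3G62960 (-1.16, adjusted p = 0.00218) and AT2G30540 (-1.19, adjusted p = 0.00678) fell as well.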
